A study of Mus musculus with 10 samples.

Results

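The 9 genes described here encode transcription factors that set granulocyte, monocyte and macrophage fate: Spi1 (PU.1), Cebpa, Cebpb, Cebpd, Cebpe, Irf8, Gfi1, Maf (c-MAF) and Id2. They were chosen by name, as known regulators of these lineages, and are 9 of the 17603 genes to which the deposited transcript models were assigned. The models of a gene were summed, and all 9 genes had values in all 10 RNA-seq libraries. Every library came from female C3H/HeN mice of wild-type (WT) genotype that carried tumors grown from injected SCC7 cells. SCC7 is a squamous carcinoma line of the mouse, used here for head and neck cancer (HNSCC in the labels). Cells that the labels call EPC, an abbreviation they do not spell out, were sorted by flow cytometry as CD45- cells from spleen (n = 3), CD45+ cells from spleen (n = 3) and CD45+ cells from tumor (n = 4). CD45, encoded by Ptprc, is the surface marker of white blood cells. No tumor-free mice and no CD45- cells from tumor were among the samples, and age and treatment other than the tumor cells are not given. The labels leave it unsaid whether replicates are separate mice. The p-values below therefore reflect the spread among these samples alone, and that spread may be technical.

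PU.1 is the ETS-family factor that opens myeloid enhancers, and in textbook models it and the erythroid factor GATA1 restrain each other. C/EBPalpha starts granulocyte and monocyte development, C/EBPepsilon and GFI1 carry granulocyte maturation, and IRF8 favours monocytes and dendritic cells over granulocytes. C/EBPbeta, C/EBPdelta and c-MAF are best known from activated and resident macrophages, and ID2 holds E proteins (basic helix-loop-helix factors) away from DNA.

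RefSeq promoter sequence of GRCm38.p6 was at hand for Cebpa, Cebpb, Irf8, Gfi1 and Id2. Spi1, Cebpd, Cebpe and Maf are described by their values alone. The sequences are the 250 bases before the annotated start, written 5′ to 3′ on the gene's own strand, and are shown for Gfi1, Cebpa and Irf8 because each holds a searched motif, and for Cebpb as the promoter with none and the highest GC content. Capitals mark the C/EBP motif TTGCNNAA in Gfi1 and the TATA box TATAAA in Cebpa and Irf8.
Gfi1, chr5:107725806-107726055, minus strand: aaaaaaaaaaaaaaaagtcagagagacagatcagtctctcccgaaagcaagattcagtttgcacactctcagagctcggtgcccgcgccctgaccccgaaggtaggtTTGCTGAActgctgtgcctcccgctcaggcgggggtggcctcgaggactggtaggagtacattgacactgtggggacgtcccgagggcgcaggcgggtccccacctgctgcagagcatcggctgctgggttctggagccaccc
Cebpa, chr7:35119043-35119292, plus strand: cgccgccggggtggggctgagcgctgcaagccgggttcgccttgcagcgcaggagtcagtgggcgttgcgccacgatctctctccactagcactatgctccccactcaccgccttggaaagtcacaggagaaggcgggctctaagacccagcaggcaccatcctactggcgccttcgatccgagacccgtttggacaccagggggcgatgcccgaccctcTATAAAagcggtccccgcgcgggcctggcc
Irf8, chr8:120736108-120736357, plus strand: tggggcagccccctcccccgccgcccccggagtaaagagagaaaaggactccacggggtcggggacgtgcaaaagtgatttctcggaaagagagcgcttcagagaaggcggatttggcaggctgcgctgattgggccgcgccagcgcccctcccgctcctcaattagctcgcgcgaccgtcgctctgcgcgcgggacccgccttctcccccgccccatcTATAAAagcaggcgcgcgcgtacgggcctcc
Cebpb, chr2:167688665-167688914, plus strand: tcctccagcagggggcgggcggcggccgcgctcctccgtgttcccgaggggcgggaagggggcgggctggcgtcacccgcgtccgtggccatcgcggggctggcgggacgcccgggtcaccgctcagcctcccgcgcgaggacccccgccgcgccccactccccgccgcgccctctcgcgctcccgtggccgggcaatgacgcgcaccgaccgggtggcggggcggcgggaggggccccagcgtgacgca
The Gfi1 match, TTGCTGAA, begins 143 bases before the start. TATAAA, searched on the sense strand between 40 and 20 bases before the start after the sequences had been read, begins 30 bases before the start of Cebpa and 31 before that of Irf8, and 1.91% of 32851 promoters held it there. In Cebpb TATAAA occurs within the 50 bases after the annotated start, outside the stretch searched and not shown. In windows of 300 bases (250 before to 50 after the start), searched on both strands, the PU.1 motif GAGGAAGT occurred in 3.20% of all promoters, the C/EBP motif in 10.8% and the erythroid GATA-factor motif AGATAA in 11.2%. None of the 7 promoter entries of these 5 genes held GAGGAAGT or AGATAA, and the Gfi1 window shown was the only one with the C/EBP motif. GC content of the 250 bases was 81.6% for Cebpb, 67.2% for Irf8, 66.4% for Cebpa, 62.8% for Id2 and 59.2% for Gfi1, against a median of 52.4% over all promoters.

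Gene bounds in the RefSeq table for GRCm38.p6 are chr2:91082374-91115759 for Spi1, chr7:35119293-35121928 for Cebpa, chr2:167688915-167690432 for Cebpb, chr16:15887286-15889545 for Cebpd and chr14:54710363-54712174 for Cebpe. They are chr8:120736358-120756694 for Irf8, chr5:107716655-107725805 for Gfi1, chr8:115703253-115706894 for Maf and chr12:25093799-25096092 for Id2. In Gfi1, which has a pair of annotated start sites, the model that begins at chr5:107725805, beside the sequence shown, held 83.4% of the splenic CD45+ signal and the model that begins at chr5:107724343 held 16.6%. In Irf8 the model downstream of the sequence shown held 99.5% of the splenic CD45+ signal and 99.9% of the tumor signal. Exons of Cebpb and Tmem189 overlap on opposite strands over 312 bases, 20.7% of the exonic bases of Cebpb, and 15.0% of those of Cebpd are shared with Spidr. The use of strand in counting is not stated, so reads in the shared stretches cannot be told apart. Tmem189 stood at 17.39 to 33.84 FPKM in the 6 splenic libraries and at 127.84 to 143.25 FPKM in the tumor libraries, beside the rise of Cebpb described below. Spidr stayed between 8.11 and 15.88 FPKM in all 10 libraries.

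Values are FPKM, fragments scaled by transcript length and by library depth, so levels can be compared between genes. Each library held about 17500000 to 19700000 fragments by the smallest step of its values. Ptprc stood at 1.63 to 2.57 FPKM in splenic CD45- libraries, 39.20 to 265.48 in splenic CD45+ and 59.42 to 92.52 in tumor CD45+, in the order of the gates. The splenic CD45- libraries were dominated by red cell transcripts, with globin genes at 62.8% to 63.8% of summed FPKM. The splenic CD45+ libraries held 29.6% to 52.4% globin beside markers of granulocytes, macrophages and lymphocytes, with 16 of 16 granulocyte markers and 11 of 11 B cell markers at 1 FPKM or more in every library. The tumor CD45+ libraries were led by macrophage genes (all 18 markers at 1 FPKM or more in each), and globin fell to 1.82% to 1.89% in replicates 2 to 4. In bulk RNA, fewer cells of a type and less RNA per cell cannot be told apart.

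A pair of libraries stood apart from their group. Splenic CD45+ replicate 2 had 0.257 times the summed level of the 9 factors in replicate 1 and 0.287 times that in replicate 3. Its B cell markers stood at 0.108 times and its macrophage markers at 0.279 times those of replicate 1. Erythroid genes were split: relative to replicate 1, erythroid transcription factors stood at 1.68 times and globin genes at 0.63 times. Erythroid markers, a list that includes globin genes, stood at 0.636 times. Tumor CD45+ replicate 1 held 10.5% globin and S100a8, a granulocyte gene, at 1059.50 FPKM against 17.62 to 23.90 in the other tumor libraries. Tumor replicates 2 and 3 differed by 2.42 times the variance that fragment counting alone predicts, against 71.1 to 83.8 times for replicate 1 and any other tumor library. They were kept as separate samples, and averaging them, an alternative chosen after seeing the data, changed no call among the 9 factors. Results that rest on splenic CD45+ replicate 2 are given below with and without it.

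In the splenic CD45- libraries all 9 factors were at low levels. Spi1 led with a mean of 2.00 ± 0.176 FPKM (SD, n = 3), followed by Irf8 (1.87 ± 0.346), Cebpb (1.77 ± 0.417) and Id2 (1.06 ± 0.252), and the ranges of these neighbours overlapped. Cebpd, Cebpe, Gfi1, Cebpa and Maf followed at or below 0.40 FPKM in every library, and the only gap without overlap between neighbours lay between Id2 and Cebpd. In the splenic CD45+ libraries the order of means was Spi1 (75.1 ± 36.2 FPKM), Irf8 (52.4 ± 40.3), Cebpb (33.1 ± 23.1), Id2 (27.8 ± 18.8), Cebpe (24.6 ± 15.3), Cebpd (16.0 FPKM, from 7.42 to 27.00), Cebpa (6.60 ± 5.30), Maf (4.18 ± 4.61) and Gfi1 (2.99 ± 1.70). No neighbours in that order were separated beyond their ranges. In the tumor CD45+ libraries Cebpb (265 ± 54.8 FPKM, n = 4) and Spi1 (252 ± 9.52) led with overlapping ranges. Id2 (202 ± 9.53), Irf8 (102 ± 14.3), the overlapping pair Cebpa (60.3 ± 13.1) and Maf (46.7 ± 2.77), Cebpd (29.2 ± 6.09), Cebpe (1.32 ± 0.158) and Gfi1 (0.152 ± 0.064) came next, each step otherwise without overlap. The tumor profile of these factors therefore had Cebpe and Gfi1 at the bottom, while Cebpe stood in the middle of the splenic CD45+ order.

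**Figure D1:**
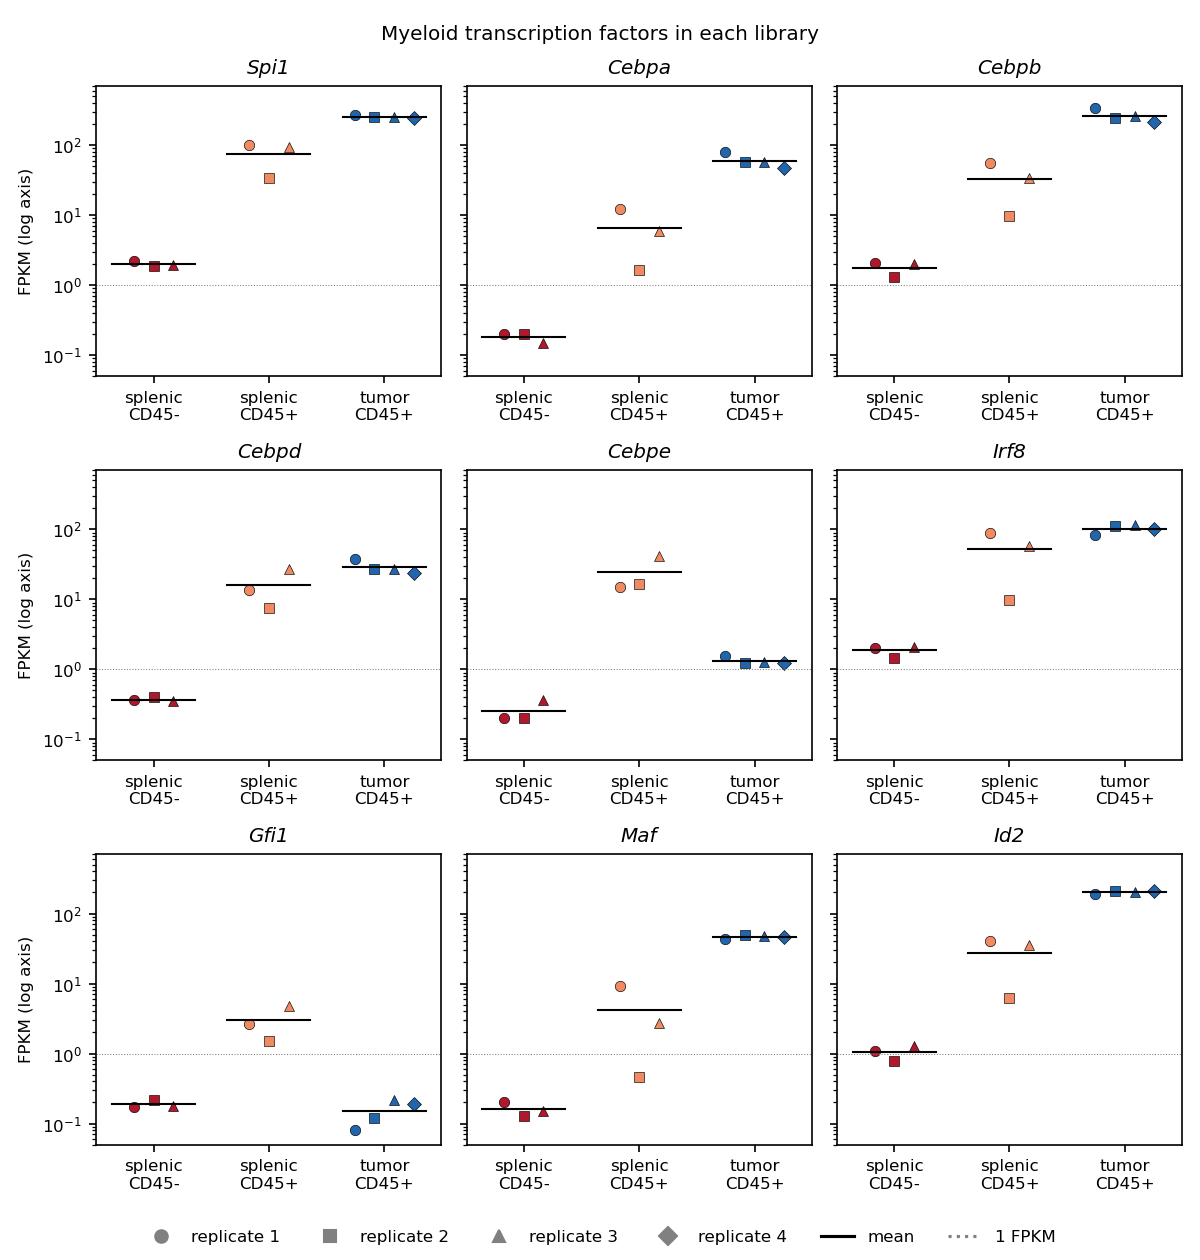
FPKM (log axis) of the 9 factors in each of the 10 libraries, with marker shape for replicate, a bar for the group mean and a dotted line at 1 FPKM. Splenic CD45- libraries are low for every factor, 7 factors are highest on average in tumor CD45+ libraries, and Cebpe and Gfi1 are highest in splenic CD45+ libraries.

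Splenic CD45+ libraries were first set against splenic CD45- libraries, which share the organ and differ in the gate. Of the 9 factors 8 passed the filter, a level of 1 FPKM in 3 or more libraries of the comparison, and all 8 were called higher by limma with Benjamini-Hochberg adjustment, at 50.5% of 9728 genes called higher. Cebpa, Cebpd, Cebpe and Gfi1 were below 1 FPKM in every CD45- library and entered only through the CD45+ libraries, so they could not have been called lower. Tumor CD45+ libraries were then set against splenic CD45+ libraries, which share the gate and differ in the tissue. All 9 factors were tested, and 5 were called higher (Spi1, Cebpa, Cebpb, Maf and Id2) at 37.7% of 11463 genes, while 2 were called lower (Cebpe and Gfi1) at 26.0% of genes. Between tumor CD45+ and splenic CD45- libraries both the tissue and the gate change, and the contributions of each cannot be told apart. There 8 of 8 factors tested were called higher, at 67.5% of 11208 genes. Of these, Cebpa, Cebpd, Cebpe and Maf were below 1 FPKM in every CD45- library and entered only through the tumor libraries, so they could not have been called lower. All 9 factors lay above every splenic CD45- library in splenic CD45+ cells, as did 59.0% of the genes tested. In tumor against splenic CD45+ cells 5 factors lay wholly above (38.4% of genes) and 2 wholly below (28.1%), and in tumor against splenic CD45- cells 8 lay wholly above (66.5%). Scaling changed how all genes split, from 4912 higher and 488 lower to 2523 and 2377 between the splenic groups with trimmed-mean factors, and from 4327 and 2986 to 2910 and 4281 in tumor against splenic CD45+ cells with globin genes removed. Each factor that was called kept its call and direction under the 4 other scalings where it could be tested. Cebpd and Irf8, not called in tumor against splenic CD45+ cells, gained a call there when every library was scaled to 1 sum. Cebpe in tumor against splenic CD45- libraries failed the filter with trimmed-mean factors and was tested there under the other 3. The 3 comparisons share libraries, so their values are not independent of each other.

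**Figure D2:**
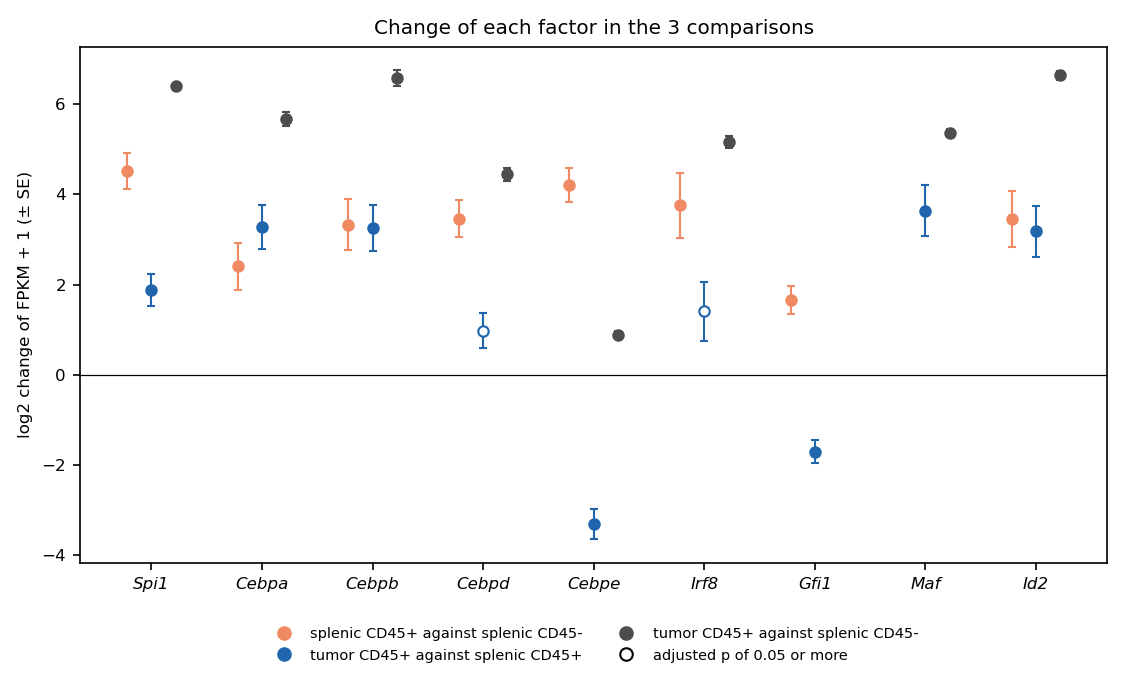
Change of each factor on the log2(FPKM + 1) scale with its standard error in the 3 comparisons, filled where the adjusted p was below 0.05 and open where it was not. Cebpe and Gfi1 lie below 0 in the tumor against splenic CD45+ comparison, and Cebpd and Irf8 are open there; Maf has no point for splenic CD45+ against CD45- and Gfi1 none for tumor against splenic CD45-, where they were not tested.

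Spi1 encodes PU.1. Its level was 2.20, 1.86 and 1.95 FPKM in splenic CD45- replicates 1 to 3, 98.95, 33.48 and 92.93 in splenic CD45+ replicates 1 to 3, and 265.61, 250.29, 249.99 and 243.06 in tumor CD45+ replicates 1 to 4. The 3 groups did not overlap, and replicate 2 was the low splenic CD45+ library. Spi1 rose by 4.52 ± 0.405 (SE) on the log2(FPKM + 1) scale from splenic CD45- to CD45+ cells, 37.5-fold by the means (limma, adjusted p = 0.000623). It rose by a further 1.88 ± 0.356 to tumor CD45+ cells, 3.36-fold by the means (adjusted p = 0.00233), and by 1.38 without splenic CD45+ replicate 2. Tumor CD45+ stood above splenic CD45- libraries by 6.40 ± 0.075 (adjusted p = 4.54e-11). Its tumor level was the steadiest of the 9 factors, with the highest library at 1.09 times the lowest.

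PU.1 has a pair of close relatives, Spib (Spi-B, known from B cells and plasmacytoid dendritic cells) and Spic (Spi-C, known from red pulp macrophages of the spleen). Spib stood at 0.98 to 1.21 FPKM in splenic CD45- libraries, 57.84, 6.41 and 41.02 in splenic CD45+ and no more than 0.12 in any tumor library. Spic stood at 1.17, 1.70 and 2.75, at 77.88, 2.00 and 22.54, and at no more than 0.14 FPKM. Both therefore had their highest values where the gate was CD45+ and the organ the spleen, unlike Spi1. Spib rose by 3.63 ± 0.703 in splenic CD45+ against CD45- cells (adjusted p = 0.0043), while Spic differed by 2.66 ± 1.04 with overlapping libraries (adjusted p = 0.062). In tumor against splenic CD45+ cells Spib fell by 4.62 (limma, adjusted p = 0.000454) and Spic by 4.05 (adjusted p = 0.00597), both below 1 FPKM in every tumor library. In tumor libraries Spi1 thus supplied nearly all of the family's summed level.

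Spi1 was also set beside Gata1, its erythroid opponent, within each library, which does not depend on scaling. Gata1 stood at 260.10, 263.79 and 230.15 FPKM in splenic CD45-, 114.19, 222.74 and 108.61 in splenic CD45+ and 0.27, 0, 0 and 0.02 in tumor libraries. Spi1 made up 0.839%, 0.700% and 0.840% of the Spi1 plus Gata1 level in splenic CD45- replicates. In splenic CD45+ replicates it made up 46.4%, 13.1% and 46.1%, with the low value again in replicate 2. In the tumor libraries it made up at least 99.9%. Klf1, another erythroid master factor, followed Gata1, at 703.65 to 787.82, 271.26 to 612.68 and 0.09 to 0.45 FPKM. Gata2, a factor of early progenitors and mast cells, was at no more than 0.11, between 0.66 and 1.59 and between 1.39 and 1.77 FPKM. From splenic CD45- to CD45+ cells Gata1 fell by 0.83 (adjusted p = 0.0433) and Klf1 by 0.95 (adjusted p = 0.0307), and each lost its call when all libraries were scaled to 1 sum.

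Of 22 genes chosen as known PU.1-bound myeloid genes, 21 of 21 tested were higher in splenic CD45+ than in CD45- libraries, beside 50.5% of all genes tested. Their median change was 4.33 against 0.67 over all genes tested, and 5 of them had entered through the CD45+ libraries alone. Ptprc is among the 21 and encodes CD45, so its rise was fixed by the gate. In tumor against splenic CD45+ cells 14 of 22 were higher, 0 were lower and 8 were not called. Their median was 2.05 against 0.20 over all genes, of which 37.7% were higher and 26.0% lower. The largest tumor rises were of Msr1, a scavenger receptor, from 1.85 to 10.61 FPKM to between 670.76 and 792.13 (log2 change 6.97 ± 0.415, adjusted p = 5.8e-06), and of Cd14, an endotoxin co-receptor, from 7.15 to 47.09 FPKM to between 1438.85 and 1505.57 (5.98 ± 0.537, adjusted p = 4.86e-05). Of 18 macrophage markers 14 were also higher in tumor, but 4 of the markers (Cd14, Cd68, Fcgr1 and Lyz2) are in the PU.1 list too. Of the 14 markers outside that list 10 were higher and 1 lower, and these 14 summed to between 12500 and 16400 FPKM in tumor against 173 to 2550 in splenic CD45+ libraries. The part of cell composition in the change of Spi1 and these genes was not tested.

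Cebpa and Cebpb showed like profiles. Cebpa, the factor that starts granulocyte and monocyte development, stood at 0.20, 0.20 and 0.15 FPKM in splenic CD45-, 12.20, 1.65 and 5.95 in splenic CD45+ and 78.60, 56.75, 58.15 and 47.55 in tumor CD45+ libraries. Cebpb, an inducible factor of macrophages and of emergency granulocyte production, stood at 2.04, 1.29 and 1.98, at 55.71, 9.63 and 33.90, and at 341.25, 241.35, 264.06 and 213.54 FPKM. For both genes the 3 groups did not overlap, splenic CD45+ replicate 2 was lowest of its group, and tumor replicate 1 was highest of its group. From splenic CD45- to CD45+ cells Cebpa rose by 2.40 ± 0.524 (limma, adjusted p = 0.00691) and Cebpb by 3.33 ± 0.563 (adjusted p = 0.00278). From splenic to tumor CD45+ cells Cebpa rose by 3.27 ± 0.489, 9.13-fold by the means (adjusted p = 0.000719), and Cebpb by 3.25 ± 0.515, 8.01-fold (adjusted p = 0.000969). Without splenic CD45+ replicate 2 these tumor changes were 2.65 and 2.56 and both stayed called, and without replicate 1 the folds by the means were 15.9 for Cebpa and 12.2 for Cebpb. The splenic rises without replicate 2 were 3.02 for Cebpa and 4.02 for Cebpb. Against splenic CD45- cells the tumor change was 5.67 ± 0.151 for Cebpa (adjusted p = 1.15e-09) and 6.58 ± 0.168 for Cebpb (adjusted p = 9.16e-10).

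The ratio of Cebpb to Cebpa within a library hardly moved between the CD45+ groups, at 4.57, 5.84 and 5.70 in splenic and 4.34, 4.25, 4.54 and 4.49 in tumor libraries. In splenic CD45- libraries Cebpa rests on about 8 to 9 fragments and no ratio is given. The deposited table lists 5 models of Cebpa and 3 of Cebpb with identical values in every library. Their sum was taken as the gene's level because identical models appear to share their fragments: of low values worth 0.3 to 2.5 fragments, 47.6% lay under 0.75 fragment in genes with 2 identical models (20 of 42 values) against 7.11% in genes with 1 model (71 of 999). With 1 model in place of the sum the levels of both genes are lower and the ratio rises, while the changes that could be tested keep their calls. Cebpa then stood at 2.44, 0.33 and 1.19 FPKM in splenic CD45+ libraries. It failed the filter between the splenic groups and was not tested there.

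The other genes named after C/EBP moved less. Cebpg, a partner subunit without an activation domain of its own, stood between 8.48 and 15.64 FPKM in all 10 libraries and was not called in splenic CD45+ against CD45- cells (0.26 ± 0.217, adjusted p = 0.337) or in tumor against splenic CD45+ cells (0.26 ± 0.169, adjusted p = 0.205). It was called higher in tumor than in splenic CD45- cells by 0.53, and this turned to the opposite sign under 2 of 4 other scalings. Ddit3 (CHOP, a stress-induced partner) stood at 38.38 to 46.29, 28.57 to 34.73 and 39.53 to 61.29 FPKM and rose by 0.74 ± 0.186 from splenic to tumor CD45+ cells (adjusted p = 0.00895), a call lost when globin genes were removed before scaling. Cebpz and Cebpzos share the name and not the family's DNA-binding fold, and lie on opposite strands of 1 locus, so their reads may not be told apart. Cebpz was called higher in splenic CD45+ than in CD45- cells (1.89, adjusted p = 0.00116) and Cebpzos in tumor than in splenic CD45+ cells (1.78, adjusted p = 6.91e-05).

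Cebpd, an acute-phase factor of the family, stood at 0.36, 0.40 and 0.35 FPKM in splenic CD45-, 13.54, 7.42 and 27.00 in splenic CD45+ and 37.97, 27.55, 27.19 and 23.94 in tumor CD45+ libraries. Splenic CD45+ replicate 3, at 27.00, exceeded tumor replicate 4, so these groups overlapped. Cebpd rose by 3.46 ± 0.408 from splenic CD45- to CD45+ cells (limma, adjusted p = 0.00113). The tumor against splenic CD45+ difference of 0.98 ± 0.381 was not called (adjusted p = 0.0529). Without splenic CD45+ replicate 3 it was 1.43 and called (adjusted p = 0.00573), without replicate 2 it was 0.56, and with all 3 groups in 1 fit it was called at 0.98 (adjusted p = 0.0244). It was also called when every library was scaled to 1 sum. Whether Cebpd differed between the CD45+ groups thus depended on single libraries, on the scaling and on the groups fitted together.

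Cebpe, the factor of secondary granule formation in neutrophils, had the opposite tissue pattern to Cebpa and Cebpb. It stood at 0.20, 0.20 and 0.36 FPKM in splenic CD45-, 14.95, 16.74 and 42.23 in splenic CD45+ and 1.56, 1.23, 1.28 and 1.23 in tumor CD45+ libraries. The 3 groups did not overlap, and the tumor libraries lay just above the splenic CD45- ones. Cebpe rose by 4.20 ± 0.382 from splenic CD45- to CD45+ cells (limma, adjusted p = 0.000623) and fell by 3.31 from splenic to tumor CD45+ cells (SE 0.333, adjusted p = 8.85e-05), 18.6-fold by the means. Tumor CD45+ exceeded splenic CD45- cells by 0.89 ± 0.081 (adjusted p = 5.02e-06), on about 28 to 38 fragments per tumor library and 4 to 9 per splenic CD45- library. It entered that test through the tumor libraries alone, so its direction there was fixed by the filter. Among the 9 factors Cebpe was the only one for which splenic CD45+ replicate 2 was not the lowest of its group.

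Cebpe is known to drive the genes of secondary and tertiary granules. All 12 such genes measured were higher in splenic CD45+ than in CD45- cells, beside 50.5% of all genes (median 6.05, with 3 entered through the CD45+ libraries alone). Ltf, which encodes lactoferrin (6.86, adjusted p = 0.000253), and Lcn2, a siderophore-binding protein (6.82, adjusted p = 0.000289), led them. In tumor against splenic CD45+ cells 11 of 12 were lower (median fall by 5.75), beside 26.0% of all genes, and 2 of the 12 had entered through the splenic libraries alone. The largest falls were of Ngp, neutrophilic granule protein, by 10.1 (adjusted p = 0.000515), and Camp, the cathelicidin precursor, by 9.40 (adjusted p = 0.000538). Lyz2, lysozyme, was the exception and rose by 2.92 (adjusted p = 0.000521), a gene that macrophages also use. Ltf stood at 446.75, 594.35 and 1297.86 FPKM in splenic CD45+ libraries, at 4.23 to 5.70 in CD45- and at 13.02 in tumor replicate 1 but 0.11 to 0.23 in tumor replicates 2 to 4. Cebpe was nonetheless at 1.23 to 1.28 FPKM in those 3 tumor libraries, so tumor replicates 2 to 4 had more Cebpe and less Ltf than any splenic CD45- library. All 16 granulocyte markers were lower in tumor than in splenic CD45+ cells. Of these, Ltf, Lcn2, Camp, Ngp, Mmp8, Mmp9 and Cd177 are also among the 12 granule genes counted above. Ly6g, a neutrophil surface protein, stood at 3.82 FPKM in tumor replicate 1 and 0 in the other tumor libraries. The part of the granulocyte markers in the fall of Cebpe was not tested.

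Gfi1 encodes a zinc-finger repressor required for neutrophil development. Its level was 0.17, 0.22 and 0.18 FPKM in splenic CD45-, 2.61, 1.51 and 4.84 in splenic CD45+ and 0.08, 0.12, 0.22 and 0.19 in tumor CD45+ libraries. Only the splenic CD45+ libraries exceeded 1 FPKM, and the tumor and splenic CD45- libraries overlapped, on about 5 to 12 fragments each. Gfi1 rose by 1.66 ± 0.311 from splenic CD45- to CD45+ cells (limma, adjusted p = 0.00382) and fell by 1.71 from splenic to tumor CD45+ cells (SE 0.257, adjusted p = 0.000744). It entered each of these tests through the splenic CD45+ libraries alone, so its direction was fixed by the filter. Tumor and splenic CD45- libraries were not tested against each other because no library reached 1 FPKM.

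The relative Gfi1b, which acts in erythroid cells and megakaryocytes, was distributed differently. It stood at 98.59, 89.43 and 76.22 FPKM in splenic CD45-, 30.60, 88.15 and 30.80 in splenic CD45+ and no more than 0.03 in tumor libraries. The ratio of Gfi1 to Gfi1b was 0.00172 to 0.00246 in splenic CD45- libraries and 0.0853, 0.0171 and 0.157 in splenic CD45+ replicates 1 to 3. Splenic CD45+ replicate 2 was again nearest to the CD45- libraries. Gfi1b fell by 5.46 from splenic to tumor CD45+ cells (adjusted p = 8.88e-06) and was not called between the splenic groups (fitted difference -0.99 ± 0.406, adjusted p = 0.0736). Of 6 genes for the histone-modifying partners of GFI1, 2 were higher and 1 lower in tumor than in splenic CD45+ cells, near the shares over all genes (37.7% and 26.0%). Kdm1a, the demethylase LSD1, stayed between 13.85 and 27.12 FPKM in all libraries (-0.25 ± 0.213, adjusted p = 0.325), and Rcor2, a CoREST-family scaffold, rose by 2.43 from at most 0.38 FPKM to between 4.67 and 5.89 (adjusted p = 5.85e-06). Of the primary granule genes 6 of 6 were higher in splenic CD45+ than in CD45- cells, beside 50.5% of all genes tested. In tumor against splenic CD45+ cells 6 of 6 were lower, beside 26.0% of all genes. In each comparison 2 of the 6 entered through the splenic CD45+ libraries alone, so their direction, like that of Gfi1, was fixed by the filter. Elane, neutrophil elastase, fell by 6.10 (adjusted p = 3.17e-05) from between 52.49 and 170.02 FPKM to 1.92 in tumor replicate 1 and 0 to 0.06 in the others.

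**Figure D3:**
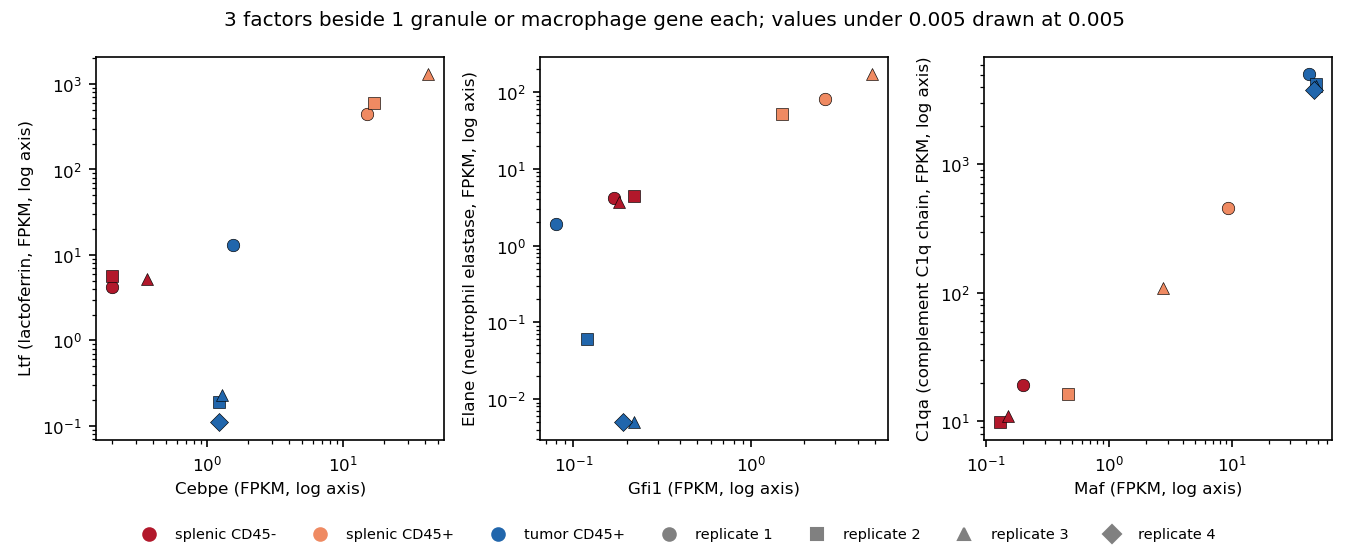
Each panel plots 1 factor (horizontal, FPKM, log axis) against 1 gene of the matching cell type (vertical, FPKM, log axis) over the 10 libraries, with values under 0.005 drawn at 0.005. Cebpe with Ltf and Gfi1 with Elane are highest in splenic CD45+ libraries, and Maf with C1qa in tumor CD45+ libraries, where C1qa lies between 3804.73 and 5025.31 FPKM.

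Irf8, the factor of monocyte and dendritic cell fate, stood at 2.02, 1.47 and 2.11 FPKM in splenic CD45-, 89.73, 9.71 and 57.61 in splenic CD45+ and 82.34, 110.98, 114.07 and 99.91 in tumor CD45+ libraries. Splenic CD45+ replicate 1 exceeded tumor replicate 1, so the CD45+ groups overlapped, and splenic replicate 2 lay at 0.108 times replicate 1. Irf8 rose by 3.75 ± 0.716 from splenic CD45- to CD45+ cells, 28.0-fold by the means (limma, adjusted p = 0.00408), and by 4.68 without CD45+ replicate 2 and 3.14 without CD45+ replicate 1. The tumor against splenic CD45+ difference of 1.41 ± 0.651 was not called (adjusted p = 0.092). It was 0.48 without splenic CD45+ replicate 2 and 2.03 without replicate 1, where it was called (adjusted p = 0.0223). With all libraries kept, it was also called when every library was scaled to 1 sum. Tumor CD45+ stood above splenic CD45- cells by 5.16 ± 0.134 (adjusted p = 9.93e-10).

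The balance of Cebpe and Irf8, a granulocyte and a monocyte factor, separated the CD45+ groups without overlap. The ratio of Cebpe to Irf8 was 0.167, 1.72 and 0.733 in splenic CD45+ replicates 1 to 3 and 0.0189, 0.0111, 0.0112 and 0.0123 in tumor replicates 1 to 4. In splenic CD45- libraries, where Cebpe rests on few fragments, it was 0.099 to 0.171. Splenic CD45+ replicate 2 was the only library in which Cebpe exceeded Irf8. In that library granulocyte markers summed to 1.40 times their level in replicate 1, while the sum over genes linked to IRF8 was 0.122 times it.

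The other interferon regulatory factors followed different courses. Irf4, a relative that like Irf8 partners with PU.1 and is known from B cells and some dendritic cells, stood at 20.84, 1.36 and 15.40 FPKM in splenic CD45+ and 0.45 to 0.66 in tumor libraries, a fall by 2.61 (adjusted p = 0.0112). Irf5, a factor of inflammatory macrophages, stood at 0.78 to 1.29, at 61.81, 5.83 and 32.30, and at 79.17 to 80.89 FPKM. It rose in splenic CD45+ against CD45- cells (3.58 ± 0.725, adjusted p = 0.00512), and its tumor against splenic CD45+ rise of 1.74 (adjusted p = 0.046) lost its call under 3 of 4 other scalings. Irf7, the amplifier of type I interferon, ran the other way between the splenic groups, at 185.59 to 222.83 FPKM in CD45- and 26.14 to 88.48 in CD45+ libraries (fell by 1.83, adjusted p = 0.00959), and stood at 214.52 in tumor replicate 1 and 393.94 to 401.65 in tumor replicates 2 to 4 (rise over splenic CD45+ of 2.56, adjusted p = 0.00146). Irf1, induced by interferon gamma, was at 0.89 to 1.09, 5.92 to 43.64 and 36.19 to 85.90 FPKM. It rose by 3.35 between the splenic groups (adjusted p = 0.00362) and by 1.75 in tumor over splenic CD45+ cells with overlapping libraries (adjusted p = 0.0376), the latter lost under 1 other scaling.

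Irf2, Irf3 and Irf9 changed less. Irf2, which opposes Irf1, stood at 5.61 to 6.64, 11.94 to 26.46 and 15.37 to 24.74 FPKM and was called only against splenic CD45- cells (1.34, adjusted p = 0.00696, for splenic CD45+), a call lost under 2 of 4 other scalings. Irf3, a sensor-activated factor, stayed between 17.81 and 30.62 FPKM (0.01 ± 0.145, adjusted p = 0.965, for tumor against splenic CD45+). Irf9, the DNA-binding part of the interferon-stimulated complex ISGF3, fell by 0.57 in tumor against splenic CD45+ cells (adjusted p = 0.0385), lost under 2 of 4 other scalings. Of 14 genes linked to IRF8 and tested in tumor against splenic CD45+ cells, 6 were higher, 2 lower and 6 not called. Over all genes tested 37.7% were higher and 26.0% lower. Cxcl16, a chemokine and scavenger receptor, rose by 7.28 (adjusted p = 5.43e-06) and Ctss, cathepsin S, by 4.20 (adjusted p = 0.00172). Ciita, the master regulator of MHC class II genes, fell by 3.37 (adjusted p = 0.00251) to at most 0.47 FPKM, and Siglech, of plasmacytoid dendritic cells, by 1.90 (adjusted p = 0.00118) to at most 0.18 FPKM. These 2 genes entered through the splenic CD45+ libraries alone, so their direction was fixed by the filter. Irf8 itself stayed at or above 82.34 FPKM in the tumor libraries. Markers of B cells, which express both Ciita and Irf8, fell as well, 11 of 11 (7 of them below 1 FPKM in every tumor library), and their part was not tested.

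Maf encodes c-MAF, a basic leucine zipper factor of resident and interleukin 10-producing macrophages. It stood at 0.20, 0.13 and 0.15 FPKM in splenic CD45-, 9.33, 0.46 and 2.74 in splenic CD45+ and 42.70, 48.71, 48.43 and 46.80 in tumor CD45+ libraries. The 3 groups did not overlap, but splenic CD45+ replicates spread 20.3-fold, the widest of the 9 factors, and the tumor libraries only 1.14-fold. Maf was not tested between the splenic groups, since only 2 of 6 libraries reached 1 FPKM. From splenic to tumor CD45+ cells it rose by 3.63 ± 0.563, 11.2-fold by the means (limma, adjusted p = 0.000862). The rise was 2.94 (7.73-fold) without splenic CD45+ replicate 2 and 4.35 (29.2-fold) without replicate 1. Tumor CD45+ stood above splenic CD45- cells by 5.36 ± 0.078 (adjusted p = 6.48e-11).

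Relatives of c-MAF moved in both directions. Maff, a small MAF protein induced by stress, was at 14.33 to 26.93 FPKM in tumor and at most 1.38 in splenic libraries (rise over splenic CD45+ of 3.95, adjusted p = 3.59e-05). The small MAF proteins Mafk and Mafg, which pair with erythroid NF-E2, went the other way, with Mafk falling by 1.58 (adjusted p = 0.000459) and Mafg by 0.84 (adjusted p = 0.00187, lost under 1 other scaling). Mafa and Nrl, of pancreas and retina, stayed below 1 FPKM everywhere.

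Of 16 genes linked to c-MAF in macrophages, a list that includes Maf itself, 11 were higher, 1 lower and 4 not called in tumor against splenic CD45+ cells. Their median was 3.90 against 0.20 over all genes, of which 37.7% were higher and 26.0% lower. The largest rises were of Pf4, a chemokine of platelets and some macrophages, by 8.29 (adjusted p = 1.51e-07) to between 592.52 and 858.92 FPKM, and Folr2, a folate receptor of resident macrophages, by 7.76 (adjusted p = 5.05e-07) to between 315.97 and 470.60 FPKM. Slc40a1, the iron exporter ferroportin, was the exception and fell by 4.87 (adjusted p = 7.8e-06) from between 43.92 and 116.88 FPKM to between 1.15 and 1.80. Slc40a1 was also at 25.18 to 35.01 FPKM in the splenic CD45- libraries, where Maf was at or below 0.20. Spic, which is known to be needed for iron-recycling macrophages of the spleen, fell with it as given above. Of the 18 macrophage markers 6 (C1qa, C1qb, C1qc, Cd163, Mrc1 and Vcam1) are in the c-MAF list too. Of the 12 markers outside that list 10 were higher and 1 lower in tumor than in splenic CD45+ cells. The part of cell composition in the change of Maf and these genes was not tested.

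Id2 stood at 1.09, 0.79 and 1.29 FPKM in splenic CD45-, 41.18, 6.28 and 35.79 in splenic CD45+ and 189.80, 208.55, 200.51 and 210.91 in tumor CD45+ libraries. The 3 groups did not overlap, and splenic replicate 2 was low. Id2 rose by 3.46 ± 0.628 from splenic CD45- to CD45+ cells (limma, adjusted p = 0.00346) and by 3.18 ± 0.561 from splenic to tumor CD45+ cells, 7.30-fold by the means (adjusted p = 0.00165). Without splenic CD45+ replicate 2 the tumor rise was 2.37 and the splenic rise 4.27. Against splenic CD45- cells the tumor change of 6.63 ± 0.097 was the largest of the 9 factors on this scale (adjusted p = 6.48e-11).

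Its relatives Id1 and Id3 were at lower levels and rose in the same comparisons. Both were below 1 FPKM in every splenic CD45- library, so against those libraries they could not have been called lower. Id1 stood at 0 to 0.21, 2.05 to 4.72 and 6.96 to 9.29 FPKM and rose by 1.18 ± 0.233 from splenic to tumor CD45+ cells (adjusted p = 0.0028). Id3 stood at 0.35 to 0.57, 1.78 to 14.12 and 20.74 to 36.96 FPKM and rose by 1.89 ± 0.579 (adjusted p = 0.0214), a call lost when globin genes were removed before scaling. The E proteins that ID2 binds moved in both directions. Tcf3 (E2A) stood at 51.57 to 73.00, 36.38 to 60.64 and 19.65 to 24.21 FPKM and fell by 1.00 from splenic to tumor CD45+ cells (adjusted p = 0.00316). Tcf4 (E2-2), of plasmacytoid dendritic and B cells, stood at 0.40 to 0.57, 1.83 to 6.82 and 9.84 to 10.74 FPKM and rose by 1.06 (adjusted p = 0.0266). Both of these tumor calls were lost under 1 other scaling. Id2 was thus above Tcf3 in FPKM in all 4 tumor libraries and below it in all 3 splenic CD45- libraries.

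**Figure D4:**
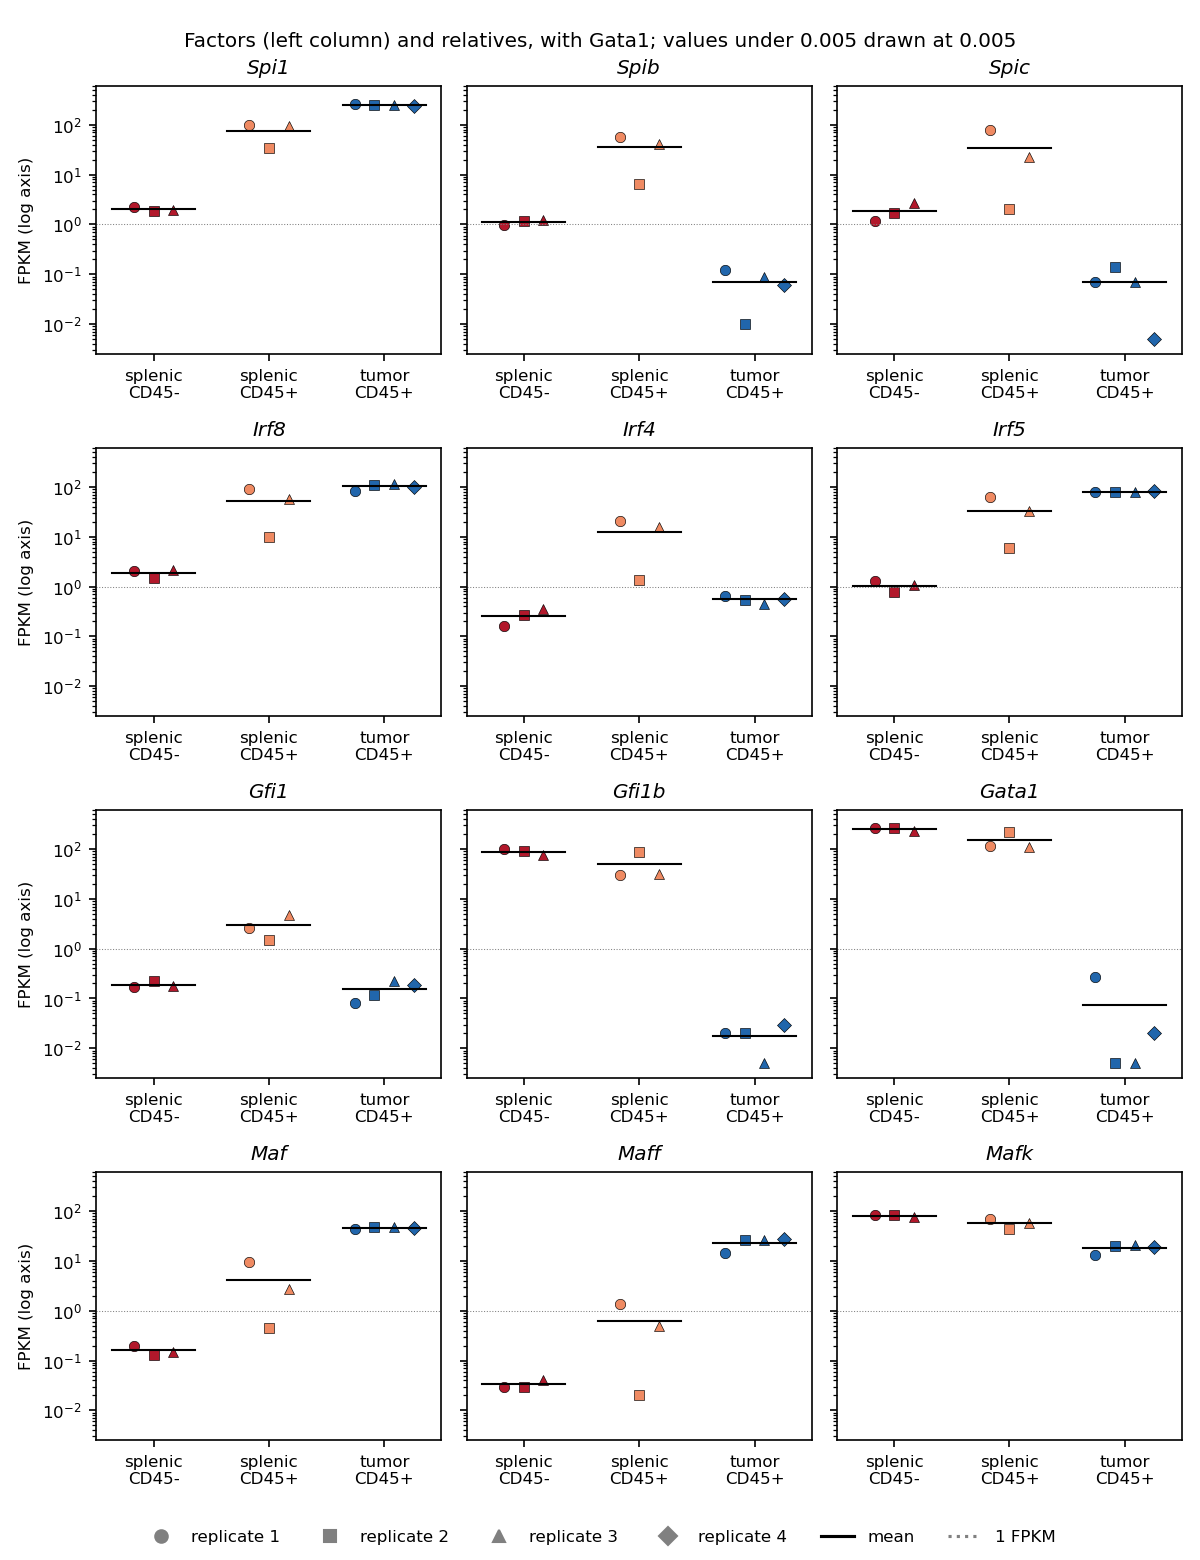
FPKM (log axis) of Spi1, Irf8, Gfi1 and Maf (left column) and of 2 further genes each by library, with marker shape for replicate and a bar for the group mean, values under 0.005 drawn at 0.005. Spib, Spic and Irf4 peak in splenic CD45+ libraries, Gfi1b and Gata1 are near 0 in tumor libraries, and Maff is highest in tumor libraries, as Maf is.

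Other factors of the same lineages were counted from lists of known genes. Of 26 other monocyte and macrophage transcription factors, 16 were higher, 2 (Spic and Irf4) lower and 8 not called in tumor against splenic CD45+ cells. Their median change was 1.30 against 0.20 over all genes, of which 37.7% were higher and 26.0% lower. Atf3, a stress-induced repressor, rose most, by 5.62 ± 0.959 (adjusted p = 0.00139), from 0.30 to 34.05 FPKM to between 200.34 and 405.08. Of the 16 rises, 7 lost their call under at least 1 other scaling. Between the splenic groups 15 of 18 tested were higher, beside 50.5% of all genes, and 0 lower, but 9 of the 18 had entered through the CD45+ libraries alone and could not have been called lower. Of 13 other granulocyte factors tested, 6 were higher, 3 lower and 4 not called in tumor against splenic CD45+ cells, near the shares over all genes (37.7% higher and 26.0% lower). Ets2, an ETS factor also used by macrophages, rose by 3.55 (adjusted p = 0.000214), and Junb, an AP-1 subunit, by 2.69 (adjusted p = 0.00685). Myb, of progenitors, fell by 2.81 (adjusted p = 2.87e-05), and Ets1, of lymphocytes, by 2.78 (adjusted p = 0.00247). Myb was below 1 FPKM in every tumor library and could only have fallen.

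Erythroid transcription factors gave the reverse picture to Spi1. Of 18 tested in tumor against splenic CD45+ cells, 17 were lower and 0 higher, beside 26.0% lower and 37.7% higher over all genes. Their median fall was by 3.65, and 6 of the 18 entered through the splenic libraries alone. Klf1 fell by 8.30 (adjusted p = 4.11e-07) and Gata1 by 7.05 (adjusted p = 6.53e-07), the largest falls. Between the splenic groups 6 were lower and 3 higher of 19, beside 488 lower and 4912 higher of all 9728 genes tested. Under at least 1 other scaling 5 of the 6 lower calls and 2 of the 3 higher ones were lost. Myb was up by 1.78 (adjusted p = 0.00226) and Bcl11a, also a lymphoid factor, by 1.48 (adjusted p = 0.0031, lost under 1 other scaling). E2f2, a cell cycle factor, was down (-1.14, adjusted p = 0.00219). Splenic CD45+ libraries therefore held Gata1 and Klf1 at 0.591 and 0.549 times their CD45- means together with all 9 myeloid factors above their CD45- ranges.

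Cytokine receptors that PU.1 and C/EBP factors are known to drive were counted in the same way. In splenic CD45+ against CD45- cells 11 of 11 tested were higher, beside 50.5% of all genes, led by Csf3r, the G-CSF receptor (4.52 ± 0.361, adjusted p = 0.000501). Of the 11, 8 had entered through the CD45+ libraries alone and could not have been called lower. In tumor against splenic CD45+ cells 4 were higher, 3 lower and 4 not called of 11, near the shares over all genes (37.7% higher and 26.0% lower). The median change of these receptors was 0.42 against 0.20 over all genes. Csf1r, the M-CSF receptor, stood at 201.25, 9.39 and 40.46 FPKM in splenic CD45+ and 253.50 to 304.81 in tumor libraries (2.60 ± 0.842, adjusted p = 0.0265, lost under 1 other scaling). Csf3r stood at 67.69, 27.01 and 63.54 and at 11.36 to 13.83 FPKM (fell by 1.86, adjusted p = 0.00127), in the same direction as Cebpe and Gfi1.

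Spread among the splenic CD45+ libraries differed between the factors. The highest library was 2.82 times the lowest for Cebpe, 2.96 for Spi1, 3.21 for Gfi1, 3.64 for Cebpd, 5.79 for Cebpb, 6.56 for Id2, 7.39 for Cebpa, 9.24 for Irf8 and 20.3 for Maf. Cebpd, Cebpe and Gfi1 were highest in replicate 3, where granulocyte markers summed to 3.36 times their level in replicate 1. The other 6 were highest in replicate 1, where c-MAF-linked macrophage genes were highest. Relative to replicate 1, replicate 2 had Cebpe at 1.12 times, Gfi1 at 0.579, Cebpd at 0.548, Spi1 at 0.338, Cebpb at 0.173, Id2 at 0.153, Cebpa at 0.135, Irf8 at 0.108 and Maf at 0.0493 times. Beside these, granulocyte markers stood at 1.40 times, macrophage markers at 0.279, B cell markers at 0.108 and c-MAF-linked genes at 0.0616 times, and their part in the spread of the factors was not tested. The macrophage markers and the c-MAF-linked genes have 6 genes in common.

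For each factor the genes with the most similar profile were taken as those with the smallest root mean square (RMS) difference of centred log2(FPKM + 1) over the 10 libraries, among 11541 genes. Spi1 was nearest to Cotl1, an actin-binding protein (0.082), Arpc1b, a subunit of the Arp2/3 actin complex (0.204), and Slfn2 (0.225), against an RMS of 2.71 of Spi1 about its own mean. Cebpa was nearest to Ubtd1 (0.149), Ctsz, a cathepsin (0.211), and Ahnak (0.228), and Cebpb to Plekho1 (0.204), Dusp6, a phosphatase of ERK (0.212), and Asah1, acid ceramidase (0.226). Id2 shared Dusp6 (0.177) and Plekho1 (0.232) with Cebpb and had Evi2a between them (0.230). Cebpd was nearest to Trem1, a receptor of neutrophils and monocytes (0.226), Adssl1 (0.226) and Dstn (0.257), and Cebpe to Rflnb (0.248), Pram1 (0.291) and Mapk13 (0.331). Gfi1 was nearest to Nlrp12 (0.107), Tesc (0.110) and Prss57, a granule serine protease (0.122), all at or below 3.32 FPKM. Irf8 was nearest to Evl (0.135), Il2rg, the common gamma chain of cytokine receptors (0.163), and Cd180, a receptor of B cells and macrophages (0.180), and Maf to P2rx7, an ATP-gated channel (0.136), Slc7a8, an amino acid carrier (0.187), and Ctsa, a cathepsin (0.226).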

How the data were processed

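RNA was measured in 10 libraries of sorted mouse cells. Per the labels' protocols, BGI extracted RNA with TRIZOL and made the libraries. Per the submitters' processing notes, the genome build was GRCm38.p6. The sources used here name no aligner, quantifier, annotation or use of strand. The authors deposited 1 value for each of 61685 transcript models per library, read here as FPKM from the values, since no header names the unit: they carry 2 decimals, and multiplied by transcript length they sum to 953307 to 1137770 per library. Models with a gene symbol (60167) were summed to 17603 genes. Fragment numbers are estimates from the smallest step of the deposited FPKM values.

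Each comparison was fitted on log2(FPKM + 1) by limma 3.58.1 (R 4.3.3) with a mean-variance trend, over the compared groups alone and over genes that reached 1 FPKM in 3 or more of their libraries, with Benjamini-Hochberg adjustment over all genes tested at a threshold of 0.05. The script was tested on simulated data. FPKM are not counts, so no count model was run. The members and gene lists were chosen with earlier results of these data known. Named genes are the 9 members, their family relatives (some are not reported here), Gata1, Klf1 and Gata2, the 2 called genes that rose most and the 2 that fell most in each list and comparison, and the 3 genes nearest in profile. Exceptions chosen after their values were seen are Ptprc, S100a8, Ly6g, C1qa, Kdm1a, Tmem189, Spidr and the TATA box search. Alternatives were other pseudocounts, filters, scalings, models, a shared fit, a replicate block and leaving out each library.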

Additional observations from a re-analysis of the deposited data

Results flagged for a closer look

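Cebpe in tumor CD45+ replicate 1, at 1.56 FPKM, lay far from replicates 2 to 4 at 1.23 to 1.28 FPKM: its gap to the next library was 0.848 of the group's range, past Dixon's 95% critical value for 4 samples. It was the only library so set apart among the 9 factors checked in the tumor group, and chance sets apart about 1 in 20 groups. The same library held Ltf at 13.02 FPKM against 0.11 to 0.23 and Camp at 40.35 FPKM against 0 to 0.11 in the other tumor libraries, and Gfi1 at 0.08 FPKM against 0.12 to 0.22. Without it Cebpe still exceeded splenic CD45- cells by 0.84 (limma). The Cebpe values rest on about 38 fragments in tumor replicate 1 and 28 to 31 in the other tumor libraries. The part of counting noise in the gap between them was not tested.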

How the results depend on the processing

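Over 626 values of the 9 factors under the alternatives, 619 kept direction and side of the threshold. A further 7 gained a call (all of Cebpd or Irf8 in tumor against splenic CD45+ cells), and 0 lost one or reversed. Factors that failed the filter under an alternative are not counted there. Among them were Cebpe in tumor against splenic CD45- cells with trimmed-mean factors and Cebpa between the splenic groups with the highest model per gene. Scaling every library to 1 sum called Cebpd (1.24, adjusted p = 0.00666) and Irf8 (1.67, adjusted p = 0.0287) in tumor against splenic CD45+ cells, for 9 calls. Between the splenic groups 4 factors were called without any 1 splenic CD45+ replicate, because only 4 then passed the filter; with the genes of the full comparison kept, an alternative chosen after seeing the data, it was 8. With the highest model per gene the log2 ratio of Cebpb to Cebpa was 3.99 in splenic CD45-, 3.15 in splenic CD45+ and 2.88 in tumor libraries, since 3 and 5 identical models are summed otherwise. Leaving out 1 library gave 4 to 8 calls between the splenic groups, 6 to 8 in tumor against splenic CD45+ cells, and 8 in tumor against splenic CD45- cells. The median change of all genes, 0.67, 0.20 and 1.06 in the 3 comparisons, ranged from -0.15 to 1.00, from -0.21 to 0.45 and from 0.11 to 1.48 over 4 other scalings. Replicates of the same number deviated together by r of -0.014 to 0.105 between the splenic groups, -0.175 to -0.044 in tumor against splenic CD45+ cells and -0.022 to 0.241 in tumor against splenic CD45- cells. Not every pair of any comparison exceeded 0.1, and the samples were fitted as unpaired. With so few libraries these correlations cannot show whether libraries of the same number share a mouse. With a replicate block 8, 7 and 8 factors were called, as without it. Changes of factors below 1 FPKM rest on few fragments and are understated on this scale.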

Other observations

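Lymphoid transcription factors were present in splenic CD45+ libraries and low in tumor libraries. Of 10 tested by limma in tumor against splenic CD45+ cells, 7 were lower, 0 higher and 3 not called, beside 26.0% lower and 37.7% higher over all genes. Of the 10, 4 entered through the splenic libraries alone. Pou2af1, a co-activator of B cells, fell by 5.71 (adjusted p = 8.57e-05), and Pax5, the B cell identity factor, by 3.63 (adjusted p = 0.000791), the largest falls. Pou2af1 stood at 110.27, 16.72 and 83.92 FPKM in splenic CD45+ replicates 1 to 3 and at no more than 0.17 in tumor libraries. Between the splenic groups 8 of 9 tested were higher in CD45+ cells, beside 50.5% of all genes, among them Ets1 by 4.25 (adjusted p = 0.00151). Of the 9, 7 were below 1 FPKM in every CD45- library and could not have been called lower, and splenic CD45+ replicate 2 was again the lowest, with Ets1 at 11.58 FPKM against 70.28 and 42.35.

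Factors of early progenitors were called in both directions. Of 10 tested in tumor against splenic CD45+ cells, 3 were higher, 3 lower and 4 not called, beside 37.7% higher and 26.0% lower over all genes. Of the 10, 4 had entered through the libraries of 1 group alone. Hoxa10 rose by 2.23 (adjusted p = 4.87e-06), from at most 0.12 FPKM in every splenic library to between 3.40 and 4.54, and Hoxa9 by 1.24 (adjusted p = 0.000645) to between 1.37 and 2.77. Both could only have risen, since no splenic CD45+ library reached 1 FPKM. Myb fell by 2.81 (adjusted p = 2.87e-05) and Erg, an ETS factor of stem cells, by 1.38 (adjusted p = 0.00158). Neither reached 1 FPKM in any tumor library, so Myb and Erg could only have fallen. Hhex and Fli1 were high in both CD45+ groups, at 4.66 to 19.12 and 4.06 to 17.31 FPKM in splenic and 13.90 to 17.30 and 15.31 to 18.06 FPKM in tumor libraries, and were not called between them (adjusted p = 0.544 and 0.192). Tumor libraries also held Krt8, an epithelial keratin, at 208.46 to 239.22 FPKM and Col3a1, a collagen of stroma, at 70.44 to 109.78 FPKM, with Krt5 and Epcam at or below 0.04 FPKM.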
